A study of Drosophila melanogaster with 3 samples.

Results

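The 300 strongest Mirror peaks were taken from the list of about 6200 peaks that the authors kept after testing their reproducibility between replicates by the irreproducible discovery rate (IDR). They are the rows with the highest pooled peak signal, so they were selected on signal and make up 4.84% of the list. The description is fullest for the 275 peaks at ranks 26 to 300. The peaks come from chromatin immunoprecipitation sequencing (ChIP-seq) of whole Drosophila melanogaster embryos aged 4 to 20 h, males and females pooled. All samples carried a transgene that expresses Mirror with GFP at its C-terminus, and they form 1 group of 3 biological replicates, numbered 1, 2 and 3. There was no untagged or otherwise treated group, and a transgene that carries mirr sequence would add copies of that region. The free-text description of each sample speaks of an input control, whereas its title, assay and antibody fields name a transcription factor ChIP, and the age field holds an unusable number.

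Mirror is a homeodomain protein of the Iroquois family, which belongs to the TALE class, named for a loop that is longer than in other homeodomains. Iroquois proteins bind DNA as dimers at ACA facing its own complement across a short spacer, and mirr is known for its part in the dorsal eye, the follicle cells of the ovary and the dorsal body wall.

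The members of ranks 26 to 300 differ in the sequence at their summit, and a few examples show the kinds that were counted. The first set holds some of the strongest members with ACANNTGT, the Iroquois sequence, with several copies of GATAAG, bound by GATA factors, or with TATCGATA, the DNA replication-related element (DRE) of housekeeping promoters. Each is 1 unbroken stretch of the plus strand of the release 6 (dm6) reference within 100 bp of the summit. It stops at bases annotated as untranslated, so at CG13390 and eEF1gamma these and any bases of the window beyond them are not shown. Capitals mark the named sequence on either strand. In Ugt37D1 they mark both copies of CTTATC, the complement of GATAAG, and 1 Iroquois sequence. In CG13390 and chif they mark the Iroquois sequence, in elm 3 GATA sequences, and in eEF1gamma and Atat the DRE.
Ugt37D1 (chr2L:16801676-16801876, + strand): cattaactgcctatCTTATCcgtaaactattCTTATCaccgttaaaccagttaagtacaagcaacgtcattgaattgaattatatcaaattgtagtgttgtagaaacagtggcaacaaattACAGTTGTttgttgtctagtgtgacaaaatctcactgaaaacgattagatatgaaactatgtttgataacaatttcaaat
CG13390 (chr2L:8376798-8376973, + strand): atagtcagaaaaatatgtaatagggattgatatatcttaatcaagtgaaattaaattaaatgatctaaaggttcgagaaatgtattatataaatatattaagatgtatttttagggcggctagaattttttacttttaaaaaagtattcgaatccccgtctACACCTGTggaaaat
chif (chr2L:16351173-16351373, + strand): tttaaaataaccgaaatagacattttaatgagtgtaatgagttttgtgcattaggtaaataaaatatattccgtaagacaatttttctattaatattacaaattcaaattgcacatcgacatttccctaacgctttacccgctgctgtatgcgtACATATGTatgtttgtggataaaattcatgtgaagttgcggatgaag
elm (chr3R:5654010-5654210, + strand): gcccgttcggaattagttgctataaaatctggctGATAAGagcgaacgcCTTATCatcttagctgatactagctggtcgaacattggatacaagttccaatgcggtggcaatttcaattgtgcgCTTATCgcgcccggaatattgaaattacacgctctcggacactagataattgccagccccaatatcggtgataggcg
eEF1gamma (chr3R:29220067-29220171, + strand): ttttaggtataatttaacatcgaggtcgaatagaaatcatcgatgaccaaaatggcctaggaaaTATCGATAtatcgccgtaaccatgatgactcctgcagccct
Atat (chr3L:9426772-9426972, + strand): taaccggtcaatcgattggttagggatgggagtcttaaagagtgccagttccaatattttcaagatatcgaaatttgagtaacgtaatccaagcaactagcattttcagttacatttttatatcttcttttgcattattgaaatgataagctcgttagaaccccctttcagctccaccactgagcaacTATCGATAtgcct

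A second set shows GGCGTA, the hexamer with the highest ratio of its share among the members to that among the other peaks, of those in at least 30 members. These examples were chosen after their values were seen, and are drawn on the strand that reads GGCGTA, with 8 bases to each side in lower case. The first 10 are promoter members, in which the hexamer is preceded by CA and 2 further bases. The last 2 lie outside promoters and lack that CA. The CA did not separate promoters from other places in all matches. An intronic match nearest to Su(Tpl) (rank 166) had it, and matches at the promoters of CG31145 and bchs (ranks 189 and 244) lacked it.
amon (chr3R:26714443-26714464, - strand): cgagcaggGGCGTAgtcgggtg
Hpf1 (chr3R:5791672-5791693, + strand): tcaacatgGGCGTAgatctaaa
CG5611 (chr3R:27636072-27636093, + strand): gcagcatgGGCGTAgtcgatag
CHMP2B (chr3L:5139560-5139581, - strand): aaatcatgGGCGTAgatggtaa
mRpL23 (chr3L:2373521-2373542, + strand): cggacacaGGCGTAgcaagggg
moody (chrX:2050225-2050246, + strand): cggccagtGGCGTAgggaactg
CG3437 (chr3L:9457706-9457727, + strand): ggatcaaaGGCGTAgctcaaat
elav (chrX:523381-523402, + strand): gcgacatgGGCGTAtctgcgcg
CG31612 (chr2L:21795032-21795053, - strand): gggtcagtGGCGTAcatctcaa
CG3009 (chrX:4667079-4667100, - strand): tggccaggGGCGTAggcccaaa
cpo (chr3R:17919260-17919281, - strand): agacgaaaGGCGTActttggta
CG3764 (chr3L:17010208-17010229, - strand): cagacgtaGGCGTAcgttggta

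The members ranged in signal from 4323 at rank 1 to 815.2 at rank 300, with 1824 at rank 26, 1175 at rank 100 and 933.8 at rank 200. Their median was 1034, against 286.5 for the other peaks, and they held 15.5% of the summed signal of the list. The boundary was not a step. The last 3 members had signals of 816.1, 815.3 and 815.2, and the 3 peaks after them 815.02, 814.9 and 814.4. Of the 300, 4 share their interval with another member at a different summit. The signal is the authors' own value, its scale and the sequencing depth are unknown, and values are compared only within a list. The members lay on every major arm, with 57 on 2L (19%), 74 on 2R (24.7%), 68 on 3L (22.7%), 58 on 3R (19.3%), 42 on X (14%) and 1 on chromosome 4 (0.333%). The shares of the other peaks on these arms were, in the same order, 19%, 21.1%, 20.9%, 24.5%, 14.3% and 0.169%.

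About the same number of members lay at promoters as elsewhere. The summit of 152 members (50.7%) was within 500 bp of a start site of a protein-coding gene, against 45% of all IDR peaks and 44.7% of the peaks outside the 300. A further 103 members (34.3%) lay in introns, against 39.4% of the other peaks, and 41 (13.7%) between genes, against 12.6%. There were 2 members (0.667%) in 3′ UTRs, 1 (0.333%) in a 5′ UTR and 1 (0.333%) in a coding exon. The other peaks had 1.71%, 1.14% and 0.458% there. The share at promoters was 60% at ranks 1 to 25, 48% at ranks 26 to 100, 47% in the next 100 and 54% in the last 100, and 47% in the 300 peaks after the members. When each replicate list was ranked by its own signal, its 300 strongest regions held 61%, 44% and 44% promoter summits in replicates 1, 2 and 3. The rest of those lists, down to the length of the IDR list, held 50.5%, 42.3% and 38.5%. The difference was positive in 3 of 3 lists and averaged 5.89 percentage points ± 4.42 (SD, n = 3). An exact two-sided sign-flip permutation test over the 3 lists gave p = 0.25, the smallest that 3 lists allow. The lists share a control and many regions.

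Promoter members sat farther upstream of the start site than weaker promoter peaks. Of the 152, 122 (80.3%) had their summit upstream, against 65.8% of the other promoter peaks, and the median position was 114 bp upstream against 42 bp. Summits 100 to 200 bp upstream made up 16.3% of all members and 7.68% of the other peaks. Those up to 100 bp upstream made up 12.3% and 14.7%, and those up to 100 bp downstream 6% and 9.22%. The interval from 100 to 200 bp upstream held 20%, 9.67% and 13% of the 300 strongest regions of replicates 1, 2 and 3, against 9.03%, 6.52% and 6.91% of the rest, so it was higher in 3 of 3 lists. Both start sites of a gene pair facing away from each other lay within 500 bp of the summit in 41 of the promoter members (27%). This held for 20.5% of the other promoter peaks, and the summit did not have to lie between the start sites. Start sites of genes of the annotation class ncRNA, which leaves out snoRNA, snRNA and tRNA genes, were within 500 bp of 21 members (7%). This held for 3.95% of the other peaks.

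**Figure D1:**
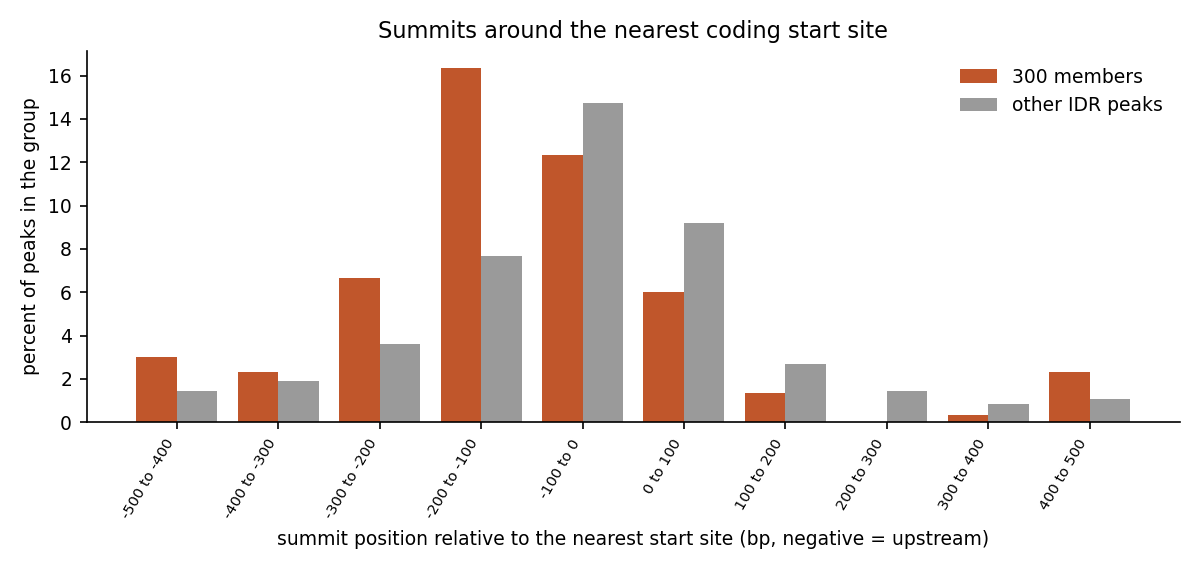
Summit positions relative to the nearest coding start site, in bp (x axis, negative values upstream), as percent of the 300 members (orange) and of the other IDR peaks (grey; y axis). The member bar is tallest at 100 to 200 bp upstream (16.3%), and the bar of the other peaks at 0 to 100 bp upstream (14.7%).

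Outside promoters, the 148 remaining members lay a median of 1804 bp from the nearest start site, against 2415 bp for the other peaks outside promoters. Only 12 of them (8.11%) were more than 10 kb away, against 13.5%. Another IDR summit lay within 2 kb of 176 members (58.7%), against 49.9% of all IDR peaks. In 9 intronic members the gene that holds the summit was not the gene with the nearest start site, so the nearest gene is a name for a place and not a statement of regulation.

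The members directly below the 25 strongest, at ranks 26 to 60, had nearest genes of many kinds. At rank 26 the summit lay between genes, 2008 bp from the start site of the UDP-glycosyltransferase gene Ugt37D1 (chr2L:16801569-16802027, signal 1824). It ranked 66, 7 and 40 in replicates 1, 2 and 3. At rank 27 the summit lay in an intron of norpA, which encodes the phospholipase C of phototransduction, and the replicate ranks were 36, 80 and 20. Promoter members in this stretch included those of px, a wing vein gene (rank 28), Ptpmeg2, a tyrosine phosphatase gene (rank 30), and Alg3, an N-glycosylation enzyme gene (rank 31). Further ones were Atf3, a bZIP transcription factor gene (rank 32), Galphaf, a G protein subunit gene (rank 41), Sox14, an HMG-box transcription factor gene (rank 43), and amon, a prohormone convertase gene (rank 51). The promoters of fok, CG1635, CG13390, TRAM, Hpf1, CG18549, CG5611, CG7841 and CIA30 were at ranks between 37 and 60.

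The intronic members of the same stretch were found in introns of Tlk, a chromatin-associated kinase gene (rank 29), Bsg, the basigin gene (rank 33), sbb, a nuclear corepressor gene (rank 34), NFAT, a transcription factor gene (rank 38), and Nedd4, a ubiquitin ligase gene (rank 55). Those at Bsg and sbb lay far from the nearest start site, at 11849 and 20111 bp. Introns at Eglp4, CG32772 and elm held ranks 36, 39 and 52, and the summit nearest to CG11362 (rank 48) lay in an intron of dnr1. The intergenic members were nearest to mirr (ranks 35 and 40), CG4004 (rank 47), sp3 (rank 50), CycB (rank 56) and CG1142 (rank 58). All of ranks 26 to 60 were found in the relaxed list of each replicate.

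The gene list with the highest count of members was that of the cytosolic ribosomal proteins. A member summit lay within 1000 bp of a start site of 251 of 13945 coding genes (1.8%), and of 19 of 85 cytosolic ribosomal protein genes (22.4%). Of ribosomal protein genes with any IDR peak, 27.5% had a member there, against 7.18% of all genes with any IDR peak. The 19 lay at ranks 21 to 282, and 18 of them at ranks 26 to 300. Their summits were placed more tightly than those of the other promoter members, between 93 bp upstream and 27 bp downstream of the start site, with a median of 15 bp upstream. The 300 strongest regions of replicates 1, 2 and 3 held 20, 8 and 15 of the 85 genes.

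RpL7 was the strongest of them at ranks 26 to 300 (rank 46, chr2L:10200888-10201198, signal 1505), and its replicate ranks were 46, 105 and 56. RpL14 (rank 77) ranked 61, 239 and 101, and RpS4 (rank 85) ranked 58, 174 and 144. The promoter of RpS25 (rank 118) ranked 72, 953 and 120. At the shared promoter of RpL13 and Dref (rank 128) the ranks were 100, 328 and 172. All 19 ranked better in replicate 1 than in replicate 2, and 14 ranked better in replicate 3 than in replicate 2. The members at mitochondrial ribosomal protein genes were 4 of 73 (5.48%): mRpS10, mRpS23 and mRpL41 at ranks 15, 19 and 23, and mRpL23 at rank 72. At ranks 15 and 19 the nearest start sites were those of Art3 and CenG1A, and the promoter at rank 72 is shared with CG9004.

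Other housekeeping and chromatin genes contributed a few members each. Of 18 genes of chromatin architecture and histone variants, 3 (16.7%) had a member. These were Chro, which encodes a chromatin protein of interbands and the spindle matrix (rank 45), Dref, the gene of the factor that binds the DRE (rank 128), and Cp190, an insulator protein gene (rank 164). The member at Cp190 was nearer to the start site of CG4338. It ranked 73, 2505 and 178 in replicates 1, 2 and 3, so replicate 2 stood far from the others. Among 13 glycolytic enzyme genes, Gapdh2 (rank 9) and the hexokinase gene Hex-A (rank 251) had one. Among 36 translation factor genes, eIF6 (rank 10) and eEF1gamma (rank 87) had one, and among 18 heat shock and chaperone genes, Hsp83 (rank 22). Of 17 genes of insulin and growth signalling, Lk6, a kinase gene, had one (rank 17).

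In each list of developmental genes at most 2 genes had a member within 1000 bp of a start site, and several lists had IDR peaks outside the 300. In the EGFR pathway list 1 of 21 genes had a member, sty, which encodes the Sprouty antagonist (rank 73), whereas 10 of 21 had some IDR peak, which 25.1% of all coding genes had. The counts were 1 of 18 for the Dpp pathway (shn, rank 81), 1 of 11 for Hedgehog signalling (ci, its transcription factor, rank 110), and 0 of 21 for Wingless, 0 of 20 for Notch, 0 of 15 for Hippo and 0 of 8 for JAK/STAT signalling. The Polycomb and trithorax list had 2 of 29, ph-p (rank 16) and brm, the ATPase of the SWI/SNF complex (rank 190). The nervous system list had 1 of 28, elav, a neuronal RNA-binding protein gene (rank 135), and the appendage and retina list 1 of 19, the limb gene Dll (rank 289). No member lay at a start site in the lists of gap, pair-rule and segment polarity, Hox, tracheal, mesoderm, ecdysone response, cell death, cytoskeleton, proteasome, chemoreceptor and cuticle genes. None did in those of GATA factors and of dorsal ectoderm either, although 5 of 6 and 6 of 12 of their genes had an IDR peak. With a background of 1.8%, a count of 0 or 1 in a list of this size is near that of any coding genes.

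The developmental genes with a member near a start site were unequal between replicates. At sty (chr3L:3418362-3418695, signal 1328), where the summit lay in an intron 568 bp upstream of the nearest start site, the ranks in replicates 1, 2 and 3 were 126, 291 and 35. At ci (chr4:56248-56598, signal 1145) they were 205, 64 and 112. At elav (chrX:523319-523648, signal 1069) they were 69, 1285 and 165, and at brm 148, 1051 and 213, so replicate 2 placed both far lower than replicates 1 and 3. At Dll they were 98, 905 and 1431, with replicate 1 standing apart.

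Members were mostly spread singly over the genome. Chained at gaps of at most 20 kb, they formed 253 loci, of which 219 held 1 member, 26 held 2 and 8 held 3 or more, with 29 members in all. At mirr, 5 members lay in 1 locus (ranks 5, 35, 150, 193 and 300), with signals of 3588, 1608, 1034, 940.4 and 815.2. The strongest had its summit 42 bp upstream of the mirr start site, and the others lay 3124, 14144 and 768 bp upstream and, in an intron, 1461 bp downstream. The member at rank 35 ranked 71, 61 and 24 in the replicates, that at rank 150 ranked 553, 143 and 79, and that at rank 300 ranked 888, 501 and 119, so replicate 3 placed all 3 highest. Ranks 5 and 193 share an interval and hence 1 replicate region, which ranked 10, 1 and 4. The intergenic member at rank 40, 40308 bp from the mirr start site, ranked 41, 30 and 78. The Iroquois complex, from ara to mirr with 20 kb added at each end, held 7 members in all, and the part of transgene copies in their signal was not tested.

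The other 7 loci joined different kinds of gene. At shn, a zinc finger gene of Dpp signalling, 4 members (ranks 81, 148, 173 and 216) were followed by 1 at the promoter of CG7737 (rank 80). The shn promoter member (chr2R:11173345-11173813, signal 1265) ranked 40, 56 and 715, whereas the intronic ones ranked 234, 145 and 156, then 271, 76 and 239, then 351, 112 and 311. Replicate 3 thus placed the promoter below the introns and replicate 1 placed it above them. In an intron of Tlk, 4 summits (ranks 25, 29, 186 and 211) had signals of 1836, 1735, 952.6 and 912.3. A single region of replicate 1, at rank 27, spanned 3 of them. At HmgZ and HmgD, neighbouring genes of HMG-box chromosomal proteins, 3 members (ranks 170, 180 and 239) had signals of 986.0, 969.8 and 878.7.

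The remaining loci each held 3 members. Next to hll and NimC3, a Nimrod family gene, the summits at ranks 3, 83 and 109 were all intergenic, and replicate 2 ranked them 2, 29 and 57. One locus joined ph-p, a Polycomb group gene, with ranks 16 and 163 in 1 interval, to D2hgdh, a 2-hydroxyglutarate dehydrogenase gene, with rank 187. Another joined eIF6 (rank 10), CG46398 (rank 178) and bgcn, a gene of germline differentiation (rank 271). The last joined Kr-h1, a zinc finger gene of the juvenile hormone response (rank 107), CG9147 (rank 194) and CG9135 (rank 223).

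**Figure D2:**
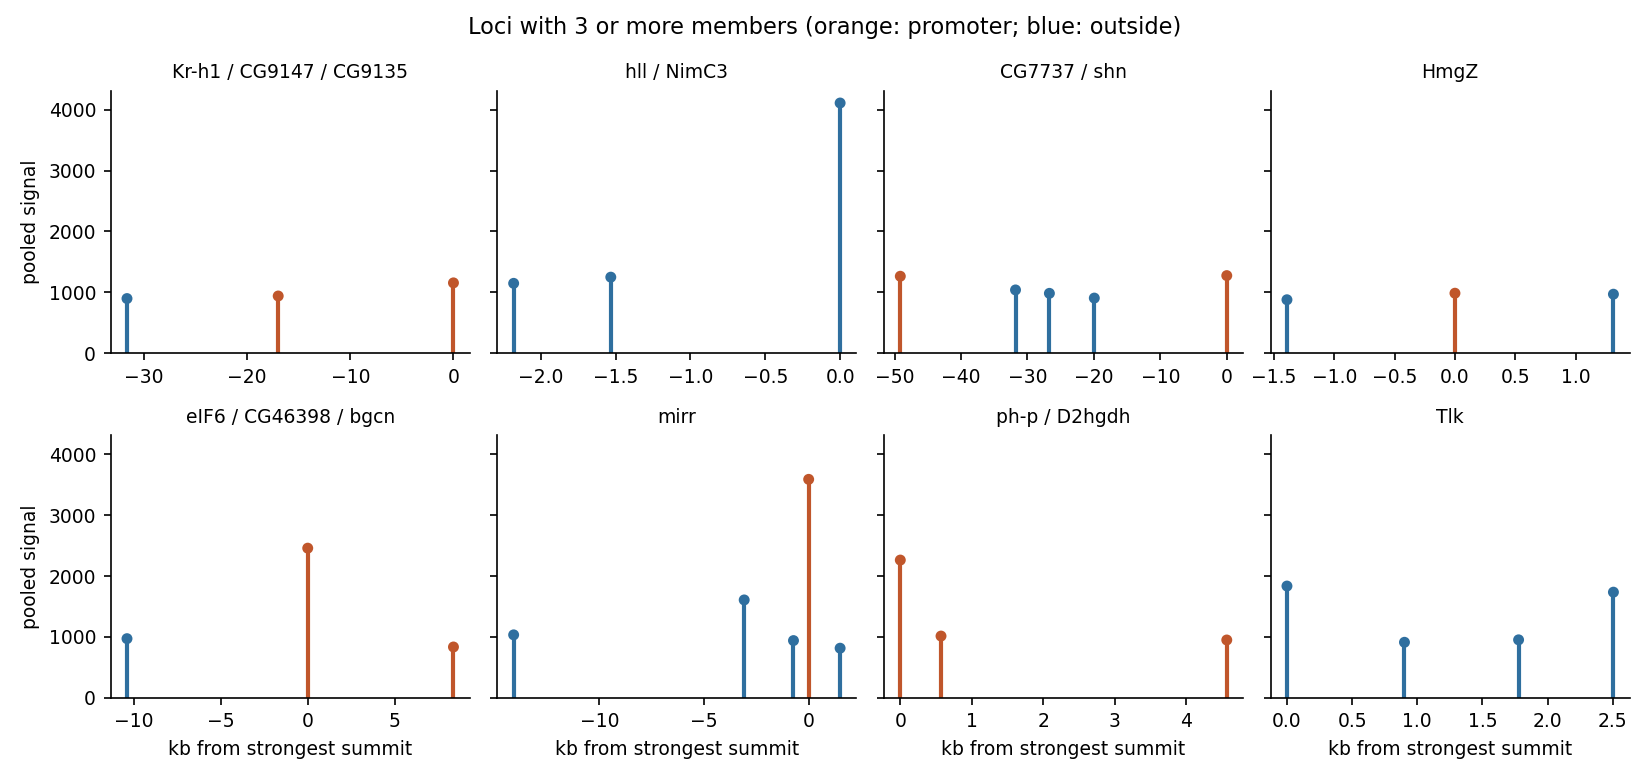
Pooled signal (y axis, the authors' unscaled value) of each member at the 8 loci with 3 or more members, against its distance in kb from the strongest summit of the locus (x axis). Orange stems are promoter members and blue stems lie outside promoters; at hll, eIF6, mirr and ph-p the strongest summit stands well above its neighbours, and at Kr-h1, shn and HmgZ the stems are of similar height.

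The sequence that Iroquois proteins bind was only slightly more frequent in the members than in the weaker peaks. ACANNTGT lay within 100 bp of the summit in 46 members (15.3%), against 13.4% of all IDR peaks, 13.3% of the peaks outside the 300 and 6.33% of windows 1000 bp to each side of the members. Among members outside promoters the share was 18.2%, against 14.5% of the other peaks there, and among promoter members it was 12.5%, against 11.9%. In replicates 1, 2 and 3 the 300 strongest regions held it in 12.3%, 19% and 15.7%, against 12.6%, 12.9% and 14% of the rest. The difference averaged 2.47 percentage points ± 3.25 (SD, n = 3; exact two-sided sign-flip permutation p = 0.50), so it was smaller than the spread between replicates. Within 50 bp of the summit the members had a lower share than the other peaks, by 1.87 percentage points.

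Its density by distance from the summit was uneven in the members. In them ACANNTGT occurred 8 times per 10 kb within 25 bp of the summit, 5.33 times at 25 to 50 bp and 12 times at 50 to 75 bp. In the other peaks it occurred 8.98, 8.95 and 6.34 times. The members' densities rest on 12, 8 and 18 occurrences, and no test was made of them. Beyond 75 bp the members were above the other peaks in each distance class, with 9 against 5.69 at 100 to 150 bp and 7.67 against 5.56 at 200 to 250 bp. The strongest members at ranks 26 to 300 that held it were nearest to Ugt37D1, CG13390, CycB, CG8195 and chif, a gene of DNA replication and chorion gene amplification (ranks 26, 44, 56, 66 and 71).

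The GATA sequence was as frequent in the members as in the whole list. GATAAG lay in 82 members (27.3%), against 27.1% of all IDR peaks and 14.7% of the windows beside the members. The replicates parted here. The 300 strongest regions of replicate 1 held it in 19%, below the 25% of the rest, those of replicate 2 in 37.3%, above 26.4%, and those of replicate 3 in 27%, against 26.9%. The difference averaged 1.71 percentage points ± 8.58 (SD, n = 3; exact two-sided sign-flip permutation p = 0.75). The members with GATAAG had median ranks of 224, 118.5 and 181 in replicates 1, 2 and 3, and those without it 131.5, 243.5 and 143. Replicate 2 thus placed the members with GATAAG highest and replicate 1 placed them lowest. At promoters the medians were 166.5, 133 and 212 with the sequence and 109, 360 and 149.5 without it, and outside promoters 251, 100 and 135 with it and 195, 181 and 130 without it. The strongest members at ranks 26 to 300 with at least 2 copies were nearest to Ugt37D1, Eglp4, an entomoglyceroporin gene, and elm (ranks 26, 36 and 52). They ranked 7, 13 and 16 in replicate 2, against 66, 65 and 81 in replicate 1.

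Promoter sequences and base composition were compared in the same way. The DRE lay in 11 members (3.67%), all at promoters, against 2.52% of all IDR peaks, and the strongest at ranks 26 to 300 were at Alg3, eEF1gamma and Atat, a tubulin acetyltransferase gene (ranks 31, 87 and 95). In replicate lists the sign of the DRE difference varied (0.96, -1.08 and 0.75 percentage points; exact sign-flip permutation p = 1). GGTCACACT, a form of the core promoter sequence named Motif 1, lay in 2 members (0.667%), against 1.42%. TATAAA, a form of the TATA box, was found in 74 members (24.7%), against 19.6% of all IDR peaks. It was more frequent among the 300 strongest in 3 of 3 replicate lists, by 8.21, 4.47 and 5.52 percentage points (mean 6.07 ± 1.93 SD, n = 3; exact sign-flip permutation p = 0.25, the smallest possible). Its share was 26.7% in the 300 peaks after the members, higher than in the members themselves, and 23.5% in the windows 1000 bp beside the members. CACACACA lay in 21 members (7%), against 10.3%, and GAGAGA, a form bound by GAGA factor, in 32 members (10.7%), against 12.8%. Both were less frequent among the 300 strongest in 3 of 3 replicate lists. The 300 peaks after the members held CACACACA in 7.67%, GAGAGA in 10.7% and the DRE in 3.67%. These levels were thus not particular to the members. For GAGAGA the difference between members and other peaks was -5.13 percentage points at promoters, 0.46 outside them and -0.00102 with windows of 250 bp to each side.

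The members were also poorer in G and C, but this was not particular to them. The difference from the weaker peaks was -1.65 percentage points for the 300 and -1.98 for the 600 strongest peaks. The sequence within 100 bp of the summit held 42% ± 7.65 GC (SD over members), against 43.6% ± 7.22 in the other peaks. At promoters the means were 40.6% and 43.6%, and outside promoters 43.4% and 43.6%. In replicates 1, 2 and 3 the 300 strongest regions differed from the rest by -2.59, -1.43 and -1.27 percentage points (mean -1.76 ± 0.72 SD, n = 3; exact sign-flip permutation p = 0.25). The frequencies of AT-rich sequences such as TATAAA move with GC content, and its part in them was not tested. Of the other sequences searched, the E-box CAGCTG (9% of members against 11.6% of the other peaks), TGACAG, a TALE homeodomain form (6.33% against 7.64%), and ACGNNCGT, a palindrome of the Iroquois form (2% against 3.10%), were also less frequent among the 300 strongest in 3 of 3 replicate lists. For the homeodomain core TAATTA, the E-box forms CATATG and CACGTG, the Zelda form CAGGTAG, the STAT form TTCNNNGAA, the heat shock element core GAANNTTC and the cAMP response element TGACGTCA the sign varied between replicate lists. Their differences between members and other peaks ran from -0.78 to 1.75 percentage points, and TGACGTCA was in no member.

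**Figure D3:**
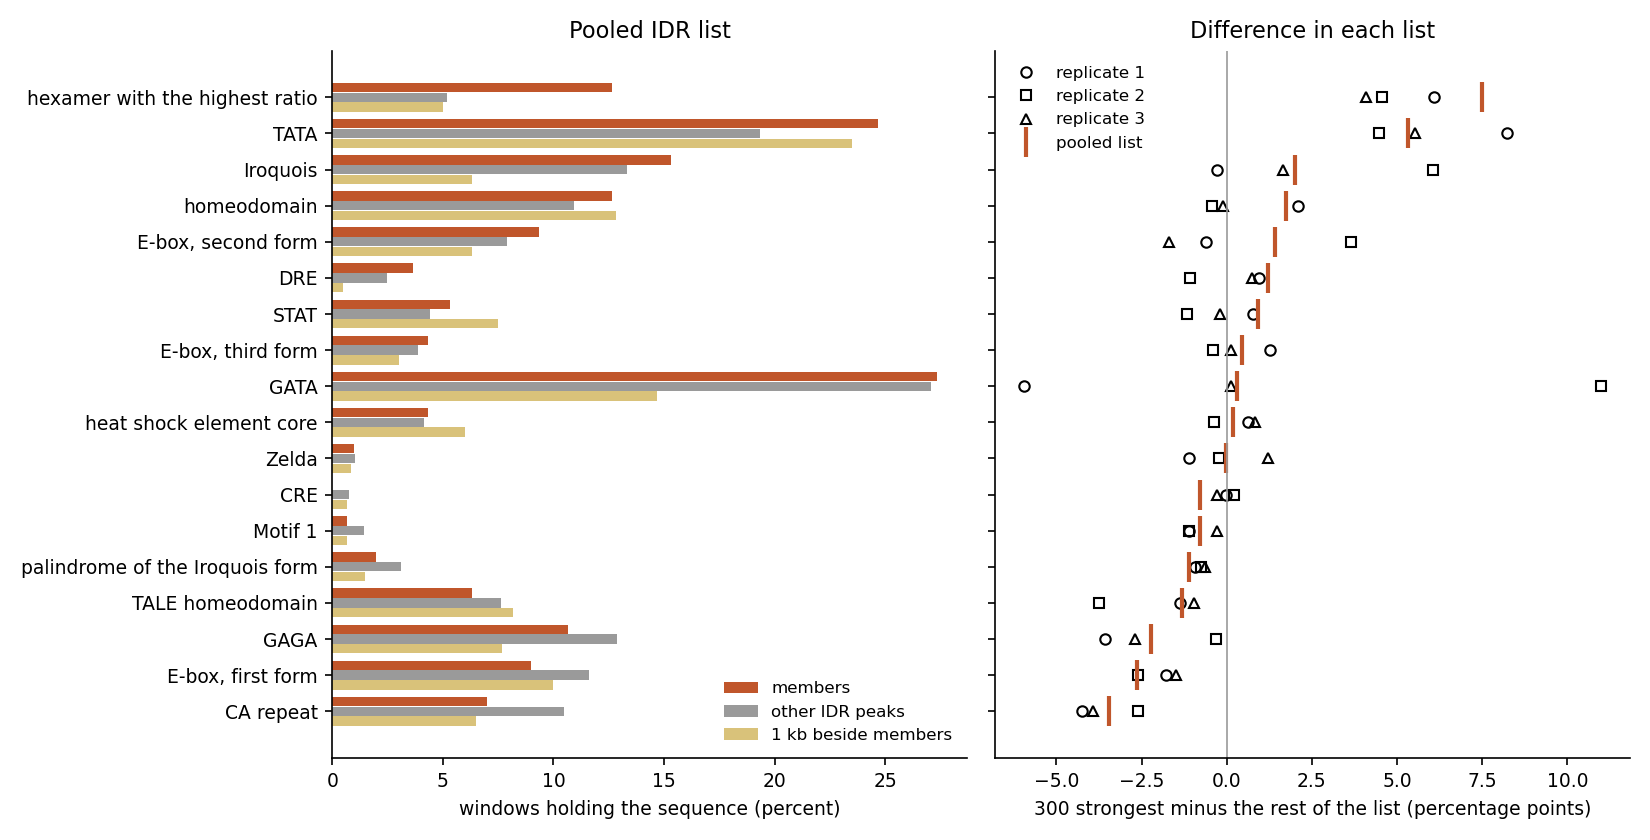
Left, percent of windows of 100 bp to each side of the summit that hold each sequence (x axis) in the members (orange), the other IDR peaks (grey) and windows 1 kb beside the members (yellow); right, the difference between the 300 strongest regions and the rest in each replicate (open symbols) and in the pooled list (orange bar), in percentage points. The hexamer GGCGTA and TATA lie to the right of 0 in all lists and the CA repeat to the left, while the GATA symbols run from -5.96 in replicate 1 to 10.98 in replicate 2.

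A count of all hexamers, made without a chosen list, gave a sequence outside the set above. Of 2080 hexamers, both strands joined, 617 occurred in at least 30 members, and the ratio of their share in members to that in other peaks had a median of 1.10 and a 95th percentile of 1.44. GGCGTA had the highest ratio, 2.44. It lay in 38 members (12.7%), against 5.55% of all IDR peaks and 5.19% of the peaks outside the 300. The share was 5% in windows 1000 bp beside the members. It was in 20% of ranks 1 to 25, 20% of ranks 26 to 100, 8% of the next 100 and 10% of the last 100, and in 5.67% of the 300 peaks after the members. In the replicate lists it was in 11%, 10% and 9.67% of the 300 strongest regions, against 4.91%, 5.44% and 5.59% of the rest. The hexamer was picked as the highest of many on these same peaks, so these values describe it and no test is given.

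Most members with GGCGTA were at promoters. It lay in 29 of the 152 (19.1%), against 4.89% of the other promoter peaks, and in 9 of the 148 outside promoters (6.08%), against 5.42%. The replicate lists had 14.2%, 15.2% and 15.9% of their 300 strongest at promoters, against 4.60%, 5.33% and 5.32% of the weaker promoter regions. It did not stand at the summit. In the members it occurred 3.33 times per 10 kb within 25 bp of the summit, 8.67 times at 50 to 75 bp and 9.33 times at 75 to 100 bp, where the other peaks had 2.81, 2.34 and 2.78. At 100 to 150 bp the density was 2.33, and 2.54 in the other peaks, but the hexamer was chosen within 100 bp. Of 32 matches in promoter members, 23 lay upstream of the nearest start site, with a median position 97 bp upstream, and 15 were on the strand of that gene.

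**Figure D4:**
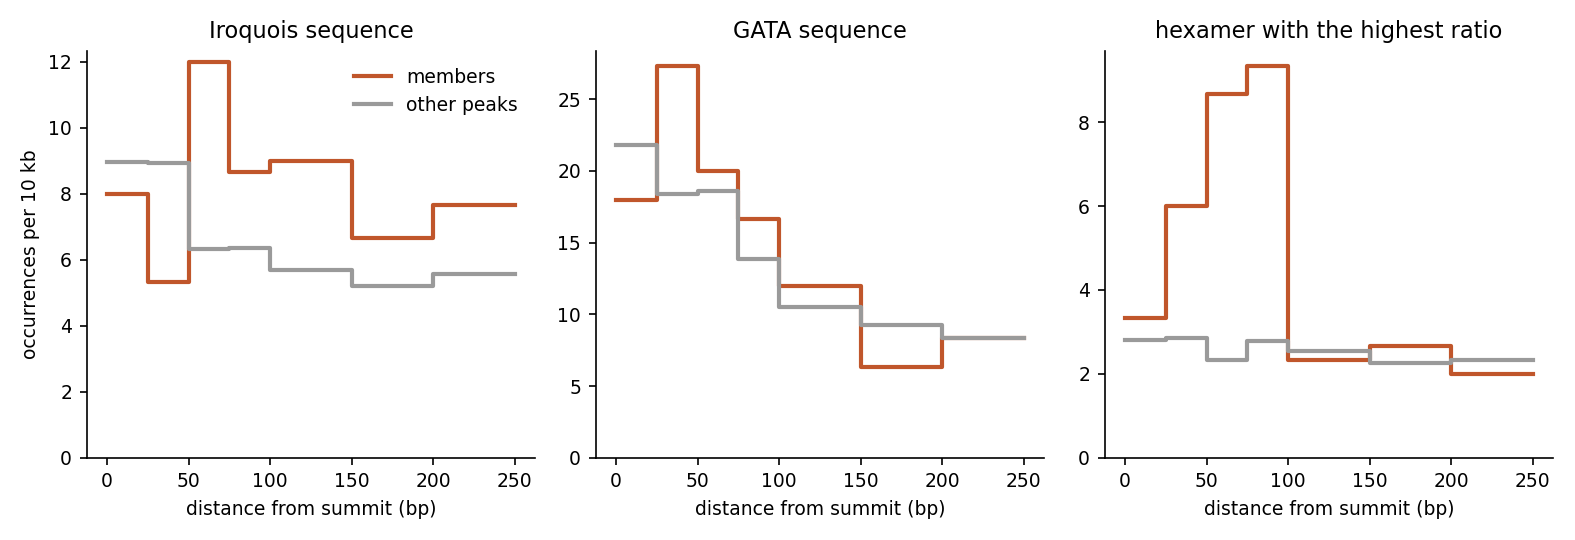
Occurrences per 10 kb (y axis) against distance from the summit in bp (x axis, both sides joined) for the Iroquois sequence, the GATA sequence and GGCGTA, in the members (orange) and the other IDR peaks (grey). The GATA sequence is densest near the summit in both groups; GGCGTA in the members is highest at 75 to 100 bp (9.33 per 10 kb) and near the level of the other peaks beyond 100 bp.

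Several of the next hexamers by ratio can overlap it in a longer stretch. CTACGC, the complement of GCGTAG, had a ratio of 2.14, CATGGG of 1.87 and CAGTGG of 1.78. CTGTAC, the complement of GTACAG, had a ratio of 1.94 and overlaps CAGTGG in GTACAGTGG, which lay in 9 members (3%) and in 0.576% of the other peaks. Of 41 GGCGTA matches in members, 19 (46.3%) were preceded by CA and 2 further bases and 22 (53.7%) were followed by G, against 13.4% and 27.8% of 313 matches in the other peaks. GGCGTA preceded by CANN lay in 16 members (5.33%) and in 41 of the other peaks (0.695%). In replicates 1, 2 and 3 it was in 6%, 4% and 5% of the 300 strongest regions, against 0.661%, 0.627% and 0.712% of the rest. CAGTGGCG was in 11 members (3.67%, against 0.983%) and CATGGGCG in 9 (3%, against 0.474%). CAGTGG itself was in 62 members and CATGGG in 30, so most members with these hexamers lacked the longer form.

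Members with the hexamer had promoters of several kinds of gene. They included amon, Hpf1, a histone PARylation factor gene, and CG5611 (ranks 51, 53 and 57), CHMP2B, an ESCRT-III gene (rank 67), and mRpL23 (rank 72). Further ones were moody, a receptor gene of the glial blood-brain barrier (rank 82), CG3437 (rank 90), elav (rank 135), CG31612 (rank 153) and CG3009 (rank 158). The 38 members had median ranks of 100, 195.5 and 115 in replicates 1, 2 and 3, against 154, 190.5 and 150.5 for all members. The examples outside promoters, nearest to cpo and CG3764, were at ranks 277 and 252.

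The pooled ranks hid large differences between replicates. Of the 300 members, 297 (99%) overlapped the about 6200 strongest regions of every replicate, against 56.1% of all IDR peaks, a description because the pooled signal holds the replicates. Ranked by replicate, 231 (77%), 191 (63.7%) and 238 (79.3%) were among the 300 strongest of replicates 1, 2 and 3. Of the members, 122 (40.7%) were among the 300 strongest of all 3 replicates, 116 of 2 and 62 of 1. No member was outside the 300 strongest of all 3. The widest spread was in replicate 2, where the members reached rank 3882, against 1472 in replicate 1 and 2794 in replicate 3.

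The replicates differed by placement. Promoter members had median ranks of 116, 240.5 and 170.5 in replicates 1, 2 and 3, and members outside promoters 208, 141 and 134. Replicate 1 thus ranked promoter members higher and replicates 2 and 3 the other members, although the pooled ranks of both classes had nearly the same median (150 and 151). Replicate 1 gave the best rank to 76 of the 152 promoter members (50%) and to 33 of the 148 others (22.3%). Among the 300 strongest of replicates 1, 2 and 3 were 85.5%, 53.9% and 75.7% of promoter members, against 68.2%, 73.6% and 83.1% of the others. The 19 members at ribosomal protein genes had medians of 113, 450 and 163. Whether depth or immunoprecipitation differed between the replicates was not tested.

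**Figure D5:**
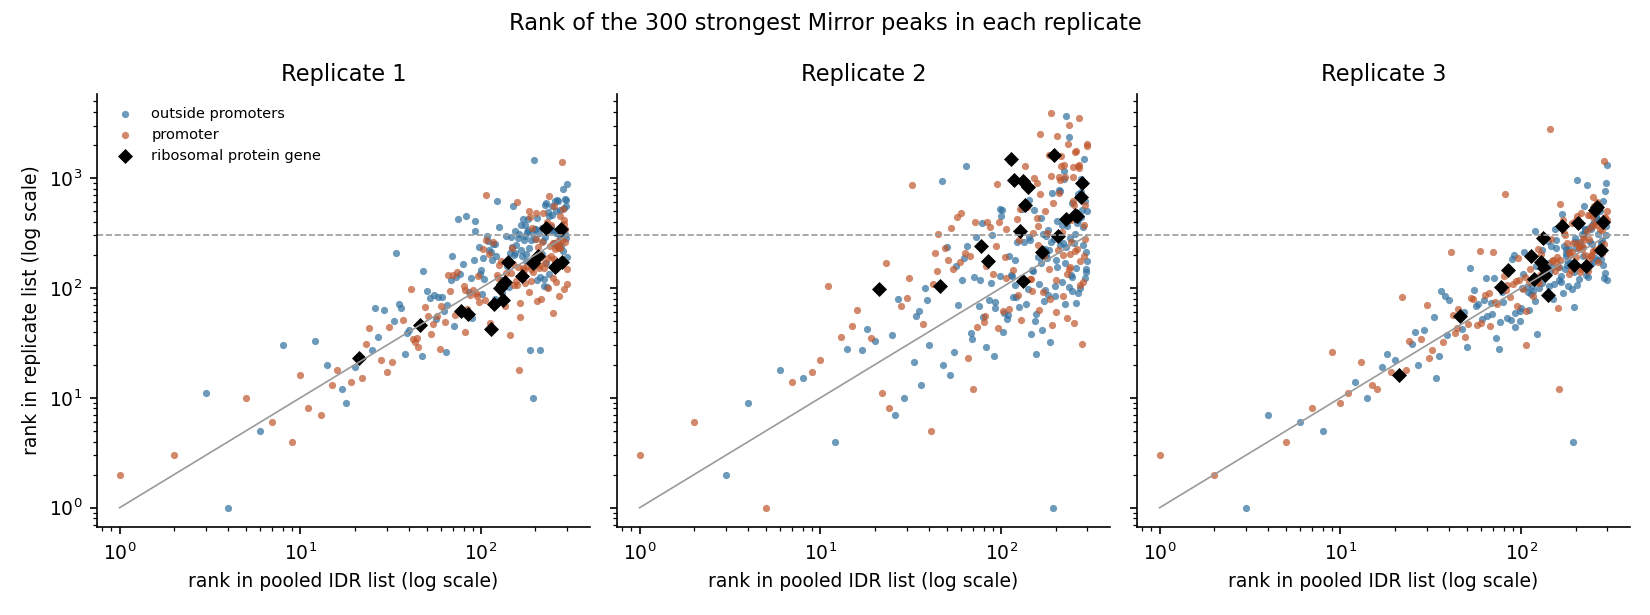
Rank of each member in the list of replicate 1, 2 or 3 (y axes, log scale) against its rank in the pooled IDR list (x axes, log scale), for promoter members (orange), members outside promoters (blue) and members at ribosomal protein genes (black diamonds); the grey line marks equal ranks and the dashed line rank 300. In replicate 2 the points scatter most, and the ribosomal protein genes lie above the line of equal ranks except RpL31.

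The extremes at ranks 26 to 300 were of both kinds. By the ratio of the highest to the lowest replicate rank, among members found in every replicate, the largest spread was at lawc (rank 144), with 37, 120 and 2794 in replicates 1, 2 and 3, followed by an intron of Trl, the gene of GAGA factor (rank 64), with 26, 1281 and 123. CG12974 (rank 279) had 1402, 31 and 335, Galphaf (rank 41) had 97, 5 and 214, and Atf3 (rank 32) had 21, 863 and 27. The closest ranks were at ftz-f1, a nuclear receptor gene, in an intron 11531 bp from a start site (rank 185), with 230, 220 and 224, and at alpha-Spec, the alpha-spectrin gene (rank 177), with 202, 199 and 228. The ranks were also close at Gk2, a glycerol kinase gene (rank 207), with 236, 222 and 257, at CG1142 (rank 58), with 82, 70 and 71, and at Cdep (rank 241), with 338, 286 and 260.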

How the data were processed

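ChIP-seq peak lists of 3 biological replicates and of the pooled replicates were used. Per the file headers and descriptions, dm6 alignments went into calls of 30000 relaxed regions per list, made by the authors against a shared file read here as the control, and then into the IDR list of 6201 peaks. The deposited signal per peak has no stated scale. Aligner, caller, IDR threshold and depth are not given in the sources used here, so no counting interval could be given.

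Members were ranked by pooled signal. Summits were placed on Ensembl 115 coding genes, and each sequence was looked for within 100 bp, on either strand, in the NCBI release 6 reference. A member's replicate rank is that of the best region overlapping it by at least 1 bp. The replicate lists, cut at 6201 regions, gave the spread and an exact sign-flip permutation test. Peaks are not replicates, so no test ran over peaks. Named genes were the nearest ones at ranks 26 to 60, up to 6 per gene list, those at loci of 3 or more members, those with the most and least different replicate ranks, and the strongest with each sequence. One gene that this rule names is not reported here. Members, gene lists and sequences were chosen with earlier results of these data known. Alternatives covered list size, windows, overlap rule, merged regions, the mirr locus and each replicate. Calculations in Python 3.11 were tested on simulated data.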

Additional observations from a re-analysis of the deposited data

How the results depend on the processing

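The promoter excess of the members kept its sign under the alternatives run, from 2.69 (start site within 250 bp) to 7.60 percentage points (within 1000 bp), and from 3.58 to 7.99 without 1 replicate. The Iroquois difference was -1.87 within 50 bp of the summit, and 0.68 to 3.85 without 1 replicate. The GATA difference ran from -2.92 without replicate 2 to 5.55 without replicate 1, and was -1.64 within 250 bp and -2.86 outside promoters. The DRE difference was -0.37 outside promoters and ran from -0.17 to 0.86 percentage points without 1 replicate. The GAGA difference was 0.46 outside promoters. The cause was not tested. The GC difference was -0.11 percentage points within 250 bp.

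The GGCGTA excess, whose alternatives were chosen after seeing the data, was 14.2 percentage points at promoters, 0.66 outside them, 4.91 over the replicate lists and 2.04 within 50 bp. Recurrence in all 3 replicates was 241 members with 50% reciprocal overlap, 292 with summits within 100 bp and 220 among the 600 strongest regions, and 297 to 299 when 1 replicate was left out. Genes with a member numbered 192 within 500 bp of a start site and 271 by the nearest start site. Without the mirr region, no difference in promoter share, GC or the sequences so tested changed sign. Of 136 alternative values, 110 stayed within the spread between replicates or, for counts, within 1.5 times. A wide spread makes this easy to meet. The GATA spread was 8.58 percentage points, so the GATA values of -2.92, -1.64 and -2.86 are among the 110 although their sign changed. The 3 lists are too few for the exact sign-flip permutation test to pass 0.05, and the unknown depth leaves the differences between replicates without a scale.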
